A study of Homo sapiens with 6 samples.

Results

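The genes described here are 36 genes of mitosis and of the passage from G2 into M phase, read as 10 roles: cyclins, CDK1 and its phosphatase, mitotic kinases, the chromosomal passenger complex, the spindle checkpoint, centromere and kinetochore proteins, mitotic kinesins, spindle and midzone proteins, cytokinesis proteins, mitotic chromosome proteins, and cofactors of the anaphase-promoting complex with securin. They were taken by name from the deposited expression table. All 36 were found among its 31016 genes, each under 1 identifier, and all 36 passed the filter on low counts, which left 18265 genes to be tested. The cells were DLD-1, an established line of human colorectal adenocarcinoma, and every library came from cells given TGF-β, a growth factor that can push epithelial cells towards a mesenchymal state. The TGFb group (3 libraries) had TGF-β alone. The TGFb_TFA group (3 libraries) also had TFA, a total flavone extract from Abelmoschus manihot, a flowering plant of the mallow family. The labels give 24, 25 and 26 hours of treatment for libraries 1, 2 and 3 of both groups, whereas the series' design text names 24 h of TGF-β, so whether the times differed is uncertain, and no library without TGF-β was analysed here. The labels do not say that the libraries of a group came from separate cultures, so p-values measure only the spread between these samples, which may be technical.

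Cells entering mitosis raise the kinase CDK1 with its cyclins, condense their chromosomes, build a spindle of microtubules and hold anaphase back through a checkpoint until every kinetochore is attached. The anaphase-promoting complex then marks securin and cyclin B for destruction, the sister chromatids part and the cell divides. Most of the genes involved are transcribed late in the cell cycle: the DREAM complex, an assembly of repressors, holds them down in resting cells, and the activators MYBL2 and FOXM1 drive them in G2. As a group they are widely used as a sign of how many cells of a tumour or culture are dividing. In bulk RNA, fewer dividing cells and less RNA per dividing cell cannot be told apart.

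The promoters of these genes carry short elements through which that control acts, and a few are shown because most members share them, a feature that the choice of members did not use. RefSeq promoter windows (GRCh38.p14, 250 bases before to 50 after the start) were matched by symbol for 32 of the 36 members, and AURKA, TPX2, TTK and UBE2C were not matched. The motifs searched were CCAAT, the box bound by the factor NF-Y, and the cell cycle genes homology region, the site of the DREAM complex, as TTTGAA or TTCGAA, both on either strand, with overlaps between them allowed. Each line gives the 130 bases up to the base before the start, 5′ to 3′ on the gene's own strand, with matches in capitals. In MKI67 the match nearest to the start is an overlap of both motifs.
CCNB2: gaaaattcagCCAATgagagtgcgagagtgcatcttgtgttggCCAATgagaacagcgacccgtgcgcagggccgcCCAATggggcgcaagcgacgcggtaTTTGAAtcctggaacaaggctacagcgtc
CDC20: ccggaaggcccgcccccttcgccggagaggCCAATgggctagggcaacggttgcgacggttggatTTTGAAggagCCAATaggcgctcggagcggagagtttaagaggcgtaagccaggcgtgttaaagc
PLK1: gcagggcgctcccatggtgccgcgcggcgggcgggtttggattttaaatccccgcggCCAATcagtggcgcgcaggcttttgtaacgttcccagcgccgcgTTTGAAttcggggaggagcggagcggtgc
KIF11: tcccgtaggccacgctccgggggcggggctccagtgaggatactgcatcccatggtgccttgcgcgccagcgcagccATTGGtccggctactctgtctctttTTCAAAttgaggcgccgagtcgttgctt
MKI67: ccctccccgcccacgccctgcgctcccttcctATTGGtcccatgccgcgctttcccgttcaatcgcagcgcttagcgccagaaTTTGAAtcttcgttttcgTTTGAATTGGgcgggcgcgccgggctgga
These stretches lie at chr15:59105016-59105145 (CCNB2, plus strand), chr1:43358851-43358980 (CDC20, plus), chr16:23678759-23678888 (PLK1, plus), chr10:92593000-92593129 (KIF11, plus) and chr10:128126424-128126553 (MKI67, minus).

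Over the whole window of 300 bases, 26 of the 32 matched members (81.25%) held at least 1 CCAAT box, against 35.7% of all 27305 RefSeq promoters. The homology region was found in 24 members (75.0%), against 16.6% of all promoters, and both motifs in 21 members (65.6%), against 6.58%. Among the 33 matched genes of a list of DNA replication and G1/S genes, 63.6% held a CCAAT box and 6.06% the homology region. A match is a run of letters, not a measured binding site. CDC25C, CENPE and KIF2C held neither motif in this window. Windows matched by symbol need not lie at the start of the gene as deposited. For CDC25C the 130 bases before the start lie at chr5:138338356-138338485. They do not adjoin the deposited span of this minus-strand gene (138285265 to 138331877) but lie farther upstream. In CENPA and NUSAP1, for example, the window lies inside the deposited span, past its start.

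The total per library ran from 60361756 to 68745953 estimated counts. The epithelial markers KRT18, KRT8, EPCAM, KRT20, CDX2 and CDH1 were expressed, with a summed level of 1287 to 1641 FPKM (fragments scaled by transcript length and library depth) for 8 markers, while VIL1 and LGALS4, also on that list, averaged 0.218 and 0.0969 FPKM. Markers of endothelium (5 genes) summed to at most 0.423 FPKM and of blood cells (3 genes in the table) to at most 0.506 FPKM. The 8 fibroblast markers summed to 0.0524 to 0.355 FPKM in the TGFb libraries and 0.373 to 2.34 FPKM in the TGFb_TFA libraries, where TGFb_TFA 3 was highest, and the number listed at 0 ran from 5 in TGFb 1 to 0 in TGFb_TFA 3. Their part in the values below was not tested. Library TGFb_TFA 3, and to a lesser degree TGFb 2, stood apart from the rest along gene length, so the results below are also given without them. Scaling matters for single libraries: TGFb_TFA 3 lay a median of -0.27 from the mean of TGFb_TFA 1 and 2 on log2 FPKM (16901 genes). On log2 CPM (counts scaled to each library's total after TMM, edgeR's trimmed mean scaling) it was -0.04 (18265 genes, not the same set). Sizes of differences between libraries are therefore given on log2 CPM, or as folds on CPM, and levels as FPKM. Orders of libraries given beside FPKM values are on FPKM, and can change on CPM. TGFb_TFA 3 was the lowest of 6 libraries in 23 members on FPKM, against 17 on CPM (29.8% of all genes on CPM). It was the highest in 7 members on FPKM, against 12 on CPM (28.6% of all genes on CPM).

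No mitotic gene was called different between TGF-β with TFA and TGF-β alone. With edgeR's quasi-likelihood test and an adjusted p under 0.05 the members called were 0 of 36, where 0.0109% of all genes tested were called, and at an unadjusted p under 0.05 they were again 0, where 1.83% of all genes were. DESeq2 also called 0 members (0.0712% of all genes), and 0 at an unadjusted p under 0.05 (2.33%). The lowest unadjusted p was 0.124, for CENPA, and the adjusted p was 0.9997 for each of the 36 (edgeR, Benjamini-Hochberg over 18265 genes). Fitted log2 fold changes ran from -0.30 (INCENP) to 0.31 (PTTG1), with 21 members below 0 and 15 above, where 48.1% of all genes were below. Their median was -0.02, beside 0.01 for all genes tested.

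These values bound the change more tightly for some members than for others. All 36 of the 95% intervals hold 0. In 18 members the interval lies within 0.5 of 0 on the log2 scale and in 31 within 1. Its width ran from 0.56 (CCNA2) to 2.58 (CENPF). On CPM the groups did not overlap for 1 member, CENPA, higher in all TGFb_TFA libraries, where 4.58% of all genes were, and for 0 members in the lower direction (3.33%). On FPKM the members that did not overlap were CCNA2 and CDK1, both higher with TFA (4.22% of all genes), again with 0 lower (3.73%), so which members separate depends on the scale.

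Of the 5 genes for cyclins, CDK1 and its phosphatase, all had a fitted log2 fold change above 0, from 0.01 to 0.19, and none was called. Without TGFb_TFA 3 the values ran from -0.07 (CCNB1) to 0.08 (CCNA2), and CCNB2 also lay below 0. CCNB1 encodes cyclin B1, which activates CDK1 at entry into mitosis, and it was the member with the highest level: 179, 203 and 172 FPKM in TGFb 1, 2 and 3, and 178, 185 and 231 FPKM in TGFb_TFA 1, 2 and 3. The groups overlapped, with TGFb_TFA 3 highest and TGFb 2 next, and edgeR fitted a log2 fold change of 0.15 (SE 0.19) with a 95% interval of -0.30 to 0.59. CDK1 itself, the kinase that drives mitosis, read 77.3, 76.4 and 68.8 FPKM without TFA and 77.3, 80.2 and 88.5 FPKM with TFA. Its log2 fold change was 0.19 (-0.17 to 0.54), and TGFb_TFA 1 stood next to TGFb 1. CCNA2, cyclin A2 of S phase and G2, read 63.4, 66.7 and 62.7 FPKM against 69.4, 71.3 and 67.3 FPKM. That gap of 64.3 ± 2.12 to 69.3 ± 1.98 FPKM (SD, n = 3) gave a log2 fold change of 0.14 (-0.14 to 0.42, edgeR). CCNB2, the other B-type cyclin, had the lowest ratio of its highest to its lowest FPKM among the members. It read 47.9, 46.7 and 45.4 FPKM against 47.4, 45.3 and 44.8 FPKM, with a log2 fold change of 0.01 (-0.27 to 0.29). Its lowest library on FPKM, TGFb_TFA 3, was its highest on CPM. CDC25C, the phosphatase that removes the inhibitory phosphates from CDK1, stood lowest of these 5 in level, at 15.1 ± 1.299 FPKM against 16.7 ± 1.81 FPKM (SD, n = 3), and its log2 fold change was 0.19 (-0.22 to 0.59).

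The mitotic kinases differed in level more than between groups. AURKA, the kinase of centrosomes and spindle poles, read 58.5, 54.5 and 54.4 FPKM without TFA and 56.6, 58.4 and 62.0 FPKM with TFA. PLK1, polo-like kinase of mitotic entry and exit, read 5.40, 7.32 and 9.22 FPKM against 7.46, 7.24 and 5.10 FPKM, with the lowest values in TGFb_TFA 3 and TGFb 1. The log2 fold changes were 0.12 (-0.20 to 0.44) for AURKA and -0.13 (-0.61 to 0.35) for PLK1. The chromosomal passenger complex, which corrects faulty attachments, was measured through 3 genes. Its kinase AURKB had 12.3 ± 1.91 FPKM against 11.1 ± 0.761 FPKM, and its targeting subunit CDCA8, borealin, 18.5 ± 1.73 FPKM against 17.8 ± 1.54 FPKM (SD, n = 3), with log2 fold changes of -0.11 and -0.03. INCENP, the scaffold of the complex and the member with the lowest mean levels, read 2.78, 3.01 and 3.49 FPKM against 3.56, 2.68 and 1.28 FPKM. Its value of -0.30 (SE 0.29; -0.98 to 0.38) rested on TGFb_TFA 3, without which it was -0.03.

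The spindle checkpoint held members that lay on either side of 0. MAD2L1, the MAD2 protein that binds and silences CDC20, read 52.0, 54.3 and 48.8 FPKM without TFA and 52.8, 56.3 and 74.7 FPKM with TFA. One library, TGFb_TFA 3, stood above the other 5, and the log2 fold change was 0.30 (SE 0.21; -0.18 to 0.77). BUB1B, or BUBR1, another part of the inhibitor of the anaphase-promoting complex, read 38.2, 26.3 and 34.7 FPKM against 35.95, 38.3 and 22.8 FPKM. Here TGFb 2 and TGFb_TFA 3 were the lowest library of their group. The same order was seen for BUB1, a kinase of the outer kinetochore, at 41.5, 33.9 and 36.1 FPKM against 41.2, 42.1 and 29.04 FPKM. TTK, the MPS1 kinase that starts the checkpoint signal, read 36.6, 38.4 and 31.7 FPKM against 37.7, 40.04 and 24.5 FPKM, so that in the TGFb group it was TGFb 3 that was lowest. The log2 fold changes of BUB1B, BUB1 and TTK were -0.02, 0.03 and -0.05.

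Among the centromere and kinetochore genes, the smallest and the largest behaved differently. CENPA (ENSG00000115163, chromosome 2, 26764289 to 26801067, plus strand, GRCh38) encodes the histone H3 variant that marks centromeres. It read 13.5, 12.9 and 11.1 FPKM without TFA and 15.4, 14.3 and 13.5 FPKM with TFA, the lowest TFA library standing next to the highest TGF-β library. The log2 fold change was 0.23 (SE 0.13; -0.08 to 0.54, edgeR). CENPF (ENSG00000117724, chromosome 1, 214603195 to 214664571, plus strand), a large kinetochore protein that accumulates in G2, read 32.5, 23.5 and 31.2 FPKM against 33.2, 35.5 and 5.11 FPKM. TGFb_TFA 1 and 2 were the highest of the 6 libraries and TGFb_TFA 3 the lowest, on CPM 5.74-fold below the geometric mean of the other TFA libraries. CENPE, the kinesin that carries chromosomes to the spindle equator, shared this order, at 6.26, 5.14 and 6.12 FPKM against 6.62, 7.77 and 1.57 FPKM, a 3.89-fold gap. The group difference was -0.26 (SE 0.55; -1.56 to 1.03) for CENPF and -0.15 (-1.20 to 0.90) for CENPE. NDC80, which grips microtubules at the outer kinetochore, had 18.7 ± 1.44 FPKM against 18.3 ± 2.82 FPKM (SD, n = 3) and a log2 fold change of -0.01.

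Both genes of mitotic chromosomes had the same pair of low libraries. MKI67 (ENSG00000148773, chromosome 10, 128096659 to 128126423, minus strand) encodes Ki-67, the coat of mitotic chromosomes used by pathologists to count dividing cells. It read 19.4, 7.85 and 20.6 FPKM without TFA and 20.4, 20.2 and 4.29 FPKM with TFA. The other libraries of the groups lay between 19.4 and 20.6 FPKM, and the fitted log2 fold change over all 6 was -0.10 (SE 0.54; -1.37 to 1.16). TOP2A (ENSG00000131747, chromosome 17, 40388525 to 40417896, minus strand), the topoisomerase that untangles sister chromatids, read 149, 95.0 and 133 FPKM against 147, 156 and 45.4 FPKM, with a log2 fold change of -0.12 (-1.01 to 0.77). On CPM, TGFb_TFA 3 lay 4.04-fold below the other TFA libraries for MKI67 and 2.86-fold for TOP2A, and TGFb 2 lay 2.47-fold below the other TGF-β libraries for MKI67.

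**Figure D1:**
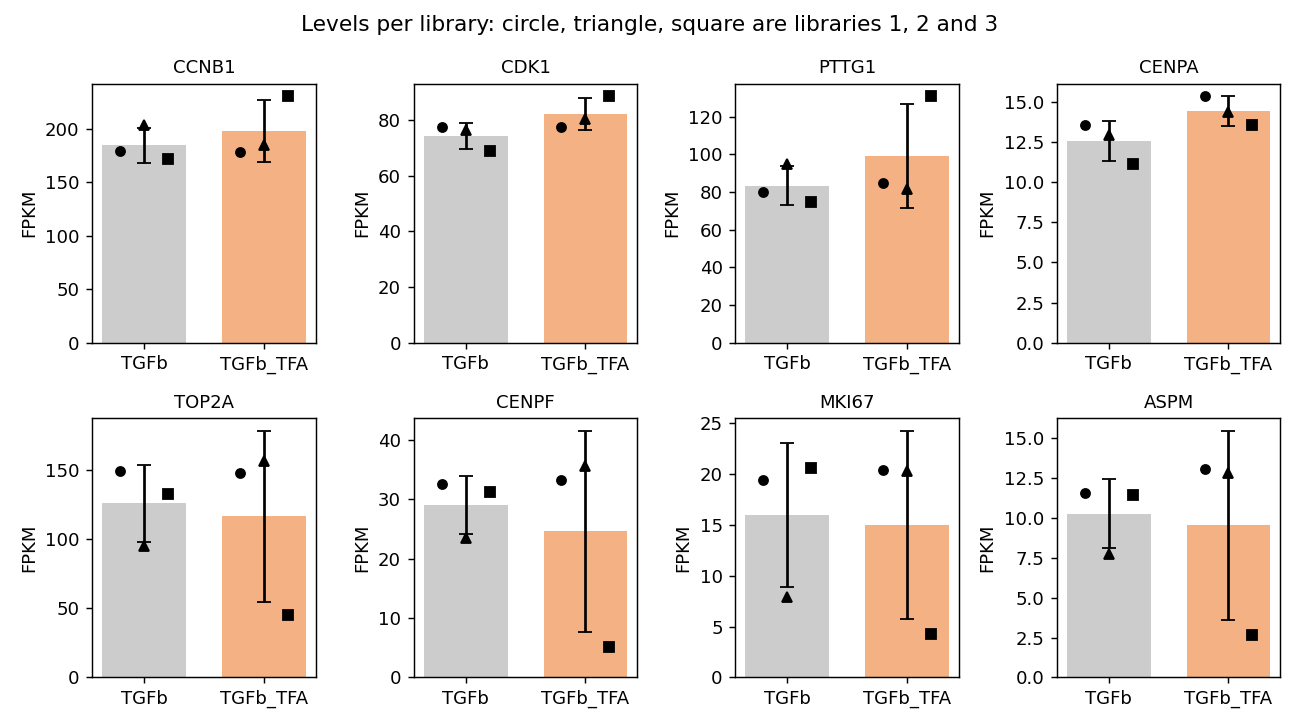
FPKM of 8 mitotic genes in each library: bars are the mean of 3 libraries, error bars the SD, and the circle, triangle and square are libraries 1, 2 and 3 of the group. In the lower row (TOP2A, CENPF, MKI67, ASPM) the triangle of TGFb and the square of TGFb_TFA lie below the other libraries of their group, while in CCNB1 and PTTG1 these are the highest points of their group.

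The mitotic kinesins, motors of the spindle, were measured through 5 genes. KIF11, or Eg5, which pushes the spindle poles apart, read 22.2, 13.9 and 21.1 FPKM without TFA and 23.1, 24.7 and 9.29 FPKM with TFA, with TGFb 2 and TGFb_TFA 3 low and a fitted difference of -0.00 (-0.74 to 0.74). KIF4A, a chromosome-bound motor that also shapes the midzone, had the same low libraries, at 16.6, 10.3 and 15.6 FPKM against 15.5, 15.5 and 9.48 FPKM. KIF2C, which takes microtubules apart at the centromere, stayed between 34.1 and 37.4 FPKM in all 6. The library lowest for KIF2C on FPKM, TGFb_TFA 3, was the highest on CPM. KIF23, a midzone motor needed for cytokinesis, had 22.01 ± 2.13 FPKM against 20.4 ± 5.33 FPKM, and KIF20A, which carries the passenger complex to the midzone, 30.4 ± 3.82 FPKM against 27.5 ± 4.41 FPKM (SD, n = 3). Log2 fold changes of these 5 ran from -0.12 (KIF20A) to 0.02 (KIF2C).

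Of the spindle and midzone proteins, ASPM (ENSG00000066279, chromosome 1, 197084127 to 197146694, minus strand), which organises the spindle poles, read 11.6, 7.77 and 11.4 FPKM without TFA and 13.1, 12.8 and 2.69 FPKM with TFA. TGFb_TFA 3 was lowest by a wide margin, 4.12-fold on CPM, and the group difference was -0.12 (-1.23 to 0.98). DLGAP5, or HURP, which stabilises spindle fibres, read 49.7, 44.0 and 46.0 FPKM against 51.0, 56.9 and 28.5 FPKM. HMMR, a spindle protein and hyaluronan receptor, read 40.9, 43.1 and 38.4 FPKM against 43.1, 40.5 and 26.6 FPKM, with only TGFb_TFA 3 apart. TPX2, the activator of AURKA on the spindle, had 48.7 ± 4.08 FPKM against 49.3 ± 10.1 FPKM. PRC1, which bundles midzone microtubules, had 30.7 ± 4.01 FPKM against 32.0 ± 4.85 FPKM, and NUSAP1, another microtubule bundler, 49.2 ± 3.38 FPKM against 52.3 ± 1.25 FPKM (SD, n = 3). None of the 6 had a fitted log2 difference beyond -0.14 (HMMR) or 0.12 (NUSAP1).

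Cytokinesis was represented by ECT2, the exchange factor that activates RhoA at the cleavage furrow, and ANLN, the scaffold anillin. ECT2 read 64.3, 44.7 and 59.7 FPKM without TFA and 61.3, 62.8 and 23.2 FPKM with TFA, and ANLN 51.3, 44.9 and 46.8 FPKM against 51.1, 52.5 and 26.7 FPKM. For both the lowest library of each group was TGFb 2 and TGFb_TFA 3, and the log2 fold changes were -0.20 (-0.93 to 0.53) and -0.13 (-0.61 to 0.35). The last role holds securin and 2 partners of the anaphase-promoting complex. PTTG1 (ENSG00000164611, chromosome 5, 160421855 to 160428739, plus strand), which encodes securin, the guardian of sister chromatids, read 80.2, 94.9 and 74.9 FPKM without TFA and 84.6, 81.6 and 131 FPKM with TFA. TGFb 2 and TGFb_TFA 3 were here the highest library of each group, and the log2 fold change was 0.31 (SE 0.26, interval -0.30 to 0.91). Without TGFb_TFA 3 it was -0.05. UBE2C, the ubiquitin-conjugating enzyme of the anaphase-promoting complex, had the same order, at 69.7, 75.8 and 71.6 FPKM against 70.2, 70.9 and 84.5 FPKM. CDC20, the activator of that complex and target of the checkpoint, had 48.3 ± 8.18 FPKM against 45.8 ± 4.22 FPKM (SD, n = 3), and did not share that order: TGFb 1 was the lowest of 6 libraries on both FPKM and CPM, and TGFb_TFA 3 the lowest of its group. The log2 fold changes of UBE2C and CDC20 were 0.10 and -0.05.

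The members differed in which libraries were high or low, and 2 libraries stood out most. On CPM, TGFb_TFA 3 was the lowest of all 6 libraries in 17 members, where it was in 29.8% of all genes, and the highest in 12 members, where it was in 28.6% of all genes. It lay more than 1 log2 unit below the mean of TGFb_TFA 1 and 2 in 8 members, where it did in 8.75% of all genes: CENPF (-2.52), ASPM (-2.04), MKI67 (-2.02), CENPE (-1.96), TOP2A (-1.51), ECT2 (-1.19), KIF11 (-1.14) and INCENP (-1.04). The members farthest in the other direction were PTTG1 (0.88), MAD2L1 (0.68), CCNB1 (0.57), UBE2C and CDC25C (0.49 each) and CDK1 (0.39). TGFb 2 was the lowest of the 3 TGFb libraries in 17 members, where it was in 37.7% of all genes, with MKI67 (-1.31), KIF4A and KIF11 (-0.60 each) and ASPM and TOP2A (-0.52 each) farthest from the mean of TGFb 1 and 3. Of the remaining libraries, TGFb_TFA 1 and 2 differed by a median of 0.06 and at most 0.41 over the members. TGFb 1 and 3 differed by a median of 0.12 and at most 0.76, beyond the largest fitted group difference (0.31, PTTG1).

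**Figure D2:**
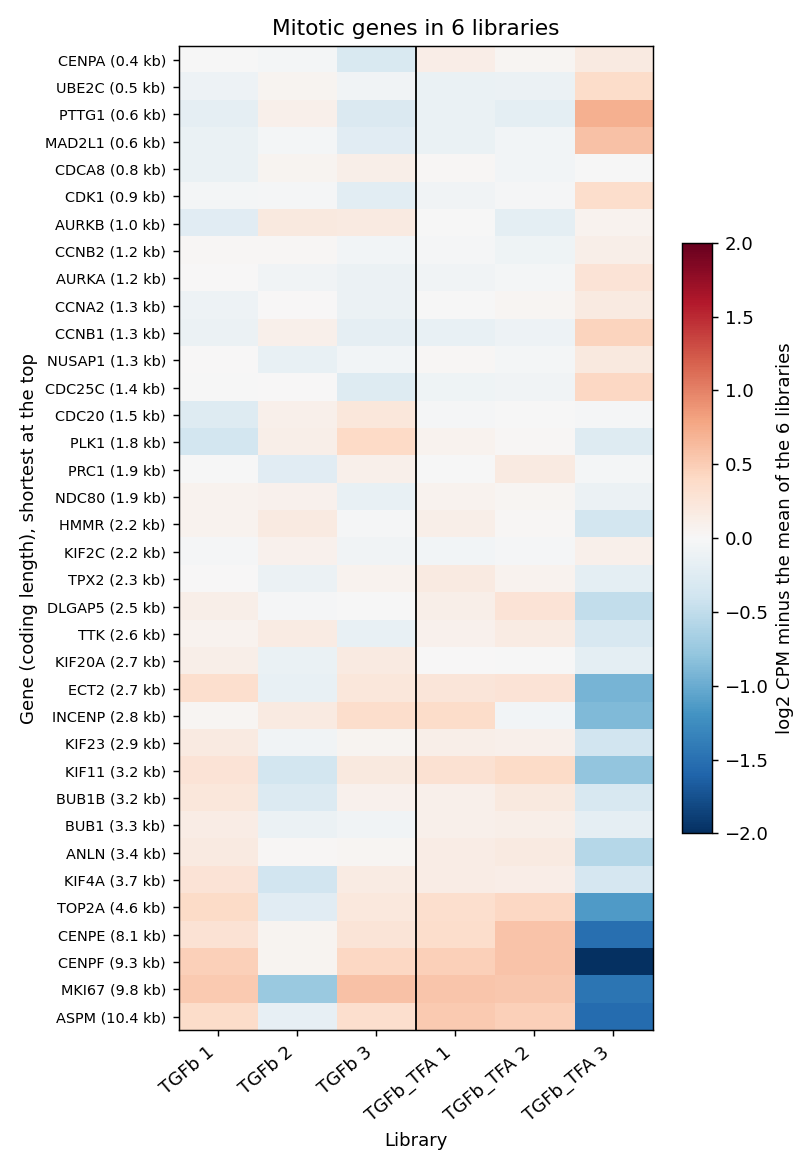
Log2 CPM of each of the 36 mitotic genes (rows, shortest coding sequence at the top, length in kb in brackets) minus its mean over the 6 libraries (columns, TGFb left of the line and TGFb_TFA right of it). TGFb_TFA 3 turns from above the mean for the short genes at the top to below it for the long genes at the bottom, and TGFb 2 does so more weakly, with its lowest value in MKI67.

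These differences were ordered by gene length. The ratio of count to FPKM gives an effective length for each gene, from 1.28 kb in UBE2C to 12.8 kb in MKI67, and it was the same in all 6 libraries to within 0.347% for every member. Counts and FPKM are thus the same measurement apart from this fixed length and a library factor, and both carry the pattern. Of the 18 members with an effective length over the median of 3.91 kb, TGFb_TFA 3 was the lowest of 6 libraries in 13, and of the 18 shorter ones in 4. TGFb 2 was the lowest of the TGFb libraries in 13 of the 18 longer members. Against other genes of like length (within 1.19-fold, with a mean of at least 1 FPKM), TGFb_TFA 3 lay below their median in 27 of the 36 members. Against genes of like coding length, taken with the same limits, it did so in 15 of the 36.

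The TGFb_TFA 3 difference correlated more strongly with the coding length of the members than with their effective length. Over the 36 members, the Spearman correlation of the TGFb_TFA 3 difference was -0.90 with the length of the coding sequence, -0.80 with that of the transcript, -0.74 with the effective length, -0.24 with the 3′ untranslated region and 0.37 with GC content. For the TGFb 2 difference the same values were -0.75, -0.71, -0.67, -0.28 and 0.23. These are descriptions over genes measured in the same libraries, and the length measures overlap with one another. Over the 9441 genes with a coding length and a mean of at least 1 FPKM, the correlation of the TGFb_TFA 3 difference with coding length was -0.72. Across the members the TGFb_TFA 3 and TGFb 2 differences had a Spearman correlation of 0.74 (0.40 over all 18265 genes) and a Pearson correlation of 0.74 (0.21 over all genes).

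Some members share an effective length but not a coding length; the examples here were picked after their values were seen. MAD2L1, ECT2 and PRC1 all have an effective length near 5.5 kb, but coding sequences of 615, 2742 and 1860 bases. Their TGFb_TFA 3 differences were 0.68, -1.19 and -0.12 on log2 CPM. CDK1 and HMMR, both at 3.91 kb, have coding sequences of 891 and 2175 bases and differences of 0.39 and -0.43. Other such members did not follow the coding length: BUB1B and INCENP, both at 4.44 kb, have 3192 and 2754 bases and differences of -0.48 and -1.04, and CENPA and PTTG1, at 1.94 and 1.96 kb, have 420 and 606 bases and differences of 0.09 and 0.88. KIF4A and TTK, near 4.55 kb, have 3696 and 2571 bases and differed little, at -0.48 and -0.44. The 10 members with a coding sequence of at least 3000 bases (KIF11, BUB1B, BUB1, ANLN, KIF4A, TOP2A, CENPE, CENPF, MKI67 and ASPM) had a median TGFb_TFA 3 difference of -1.33, all 10 of them below 0, and a median TGFb 2 difference of -0.48, again all below 0. The 20 members from 1000 to under 3000 bases had a median of -0.15. The 6 members under 1000 bases (CENPA, UBE2C, PTTG1, MAD2L1, CDCA8 and CDK1) had 0.44, with 0 of them below 0.

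**Figure D3:**
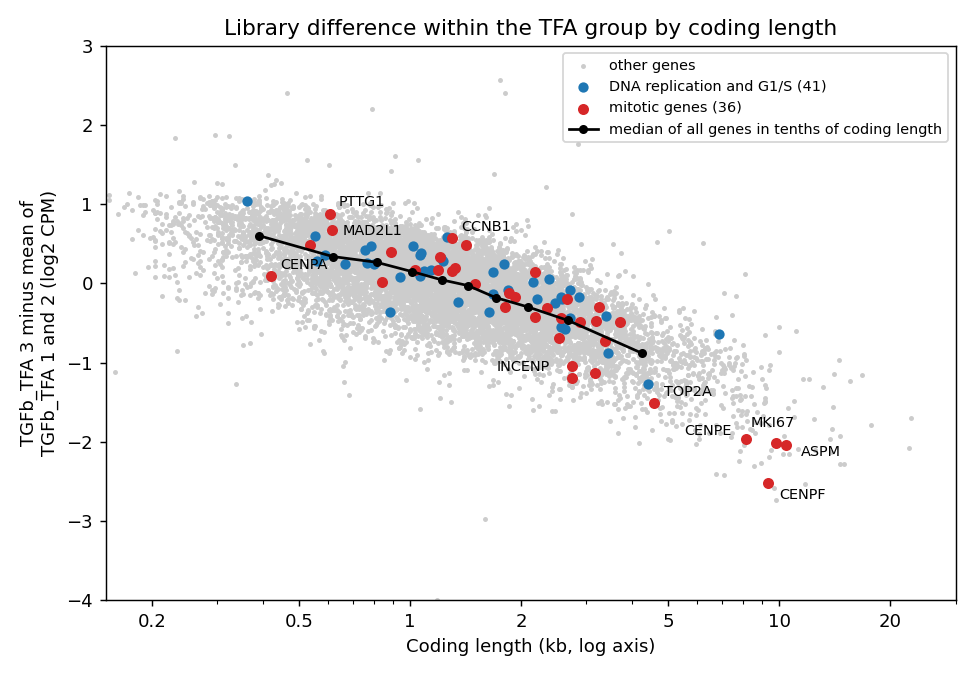
Difference of TGFb_TFA 3 from the mean of TGFb_TFA 1 and 2 (log2 CPM) against coding length (kb, log axis) for 9423 genes. All have a mean of at least 1 FPKM, and 18 further such genes, no member among them, lie outside the axes. The 36 mitotic genes (red) and 41 DNA replication and G1/S genes (blue) fall with coding length as the all-gene medians (black) do. Single members lie well off the medians, with CENPF at -2.52 and PTTG1 at 0.88. The 10 members of 3000 bases or more have a median of -1.33, and the longest bin of all genes -0.88.

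The relation to coding length was also present over all genes. The 9441 genes with a coding length and a mean of at least 1 FPKM were split into 10 bins by coding length. Their median TGFb_TFA 3 difference went from 0.60 in the shortest bin (median length 390 bases) to -0.88 in the longest (4261.5 bases). On the scale of each gene's deviation from the 6-library mean, TGFb_TFA 3 shifted by -0.50 log2 per doubling of coding length over the members. The shift was -0.29 over the 41 DNA replication and G1/S genes and -0.22 over all 13933 tested genes with a coding length. That last set also holds genes with a mean under 1 FPKM, which the bins leave out. Those G1/S genes lay at -0.76 (4 genes of 3000 bases or more), -0.03 (26 genes) and 0.29 (11 genes under 1000 bases) in the same classes as above. Once the all-gene trend with coding length was taken from each gene, the members' median deviation in TGFb_TFA 3 was 0.01, with single members from -1.31 to 0.48. The same median was 0.18, 0.01 and -0.12 in TGFb 1, 2 and 3, and -0.04 and -0.05 in TGFb_TFA 1 and 2. Within 59 genes of like coding length, 3.39% lay lower than CENPF, and within their own windows 3.01% lay lower than ECT2, 6.15% lower than INCENP and 7.38% lower than TOP2A, while 96.7% lay lower than PTTG1 and 97.3% lower than CCNB1.

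The group difference shifted with these libraries. Over the 36 members the log2 fold change had a Spearman correlation of -0.69 with coding length and -0.53 with effective length. Leaving out TGFb_TFA 3 turned the latter to 0.65. Without that library 13 members lay below 0 and 23 above, with a median of 0.05 and a range of -0.17 to 0.31, and 20 of the 36 changed the sign of their uncalled value. edgeR called 0 members there (0.0157% of all genes). Leaving out TGFb 1 instead left 15 members below 0, while leaving out any of the other 4 libraries left 20 to 23. The median of the 18 longer members was -0.10 with all libraries and 0.11 without TGFb_TFA 3, and that of the 18 shorter members was -0.02 without it.

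Without both TGFb 2 and TGFb_TFA 3, a choice made after seeing the data, 0 members were called (0.0161% of all genes) and 0 had an unadjusted p under 0.05. The estimates then narrowed, with values from -0.14 (KIF20A) to 0.24 (CENPA) and a median of 0.04. CENPF stood at 0.08 (95% interval -0.09 to 0.25), MKI67 at -0.01 (-0.16 to 0.15), TOP2A at 0.08 (-0.12 to 0.28), ASPM at 0.14 (-0.01 to 0.30) and CENPE at 0.19 (-0.04 to 0.42). Since these libraries were left out for how they lay on the members, the narrower intervals describe the 4 libraries that remain. CENPA, the top of that range, had 0.23 with all 6 libraries.

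**Figure D4:**
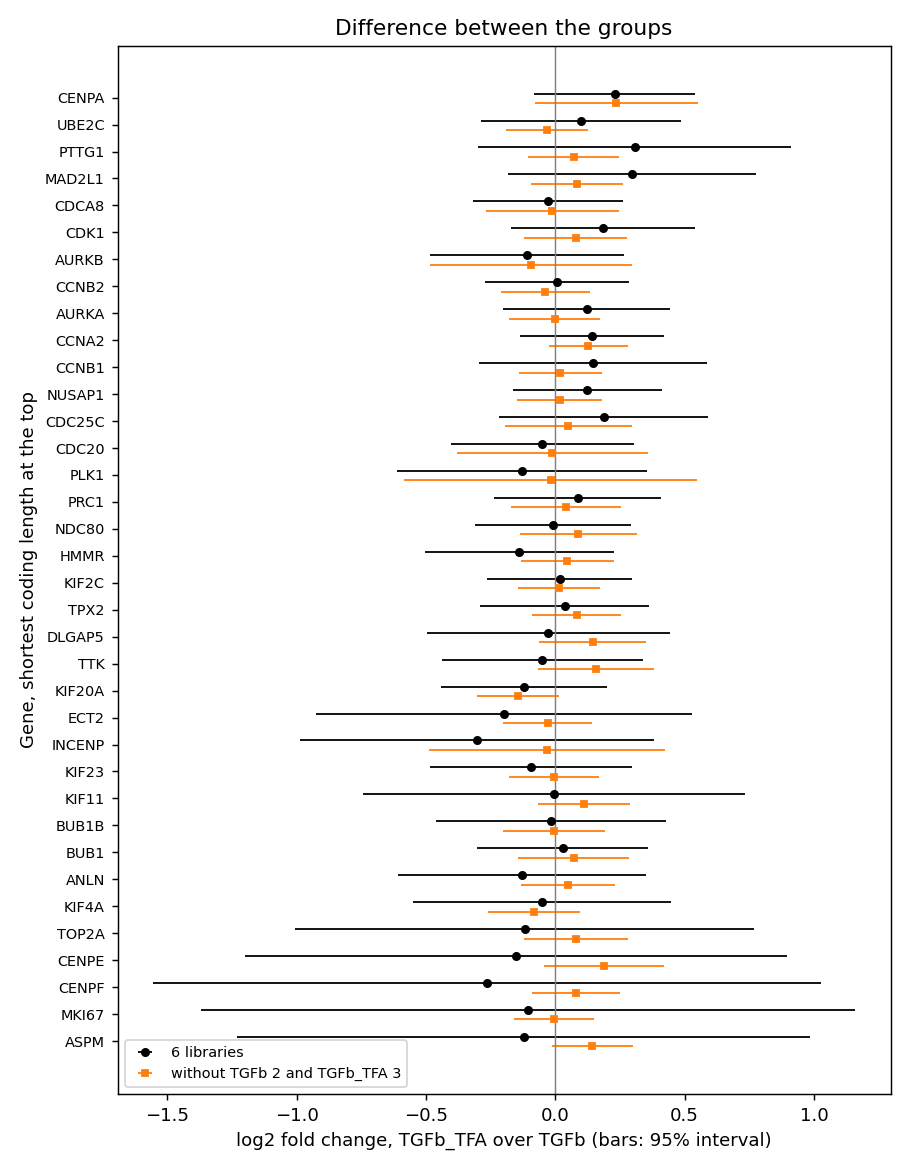
Fitted log2 fold change of TGFb_TFA over TGFb with its 95% interval for each of the 36 mitotic genes, shortest coding sequence at the top, from all 6 libraries (black circles) and without TGFb 2 and TGFb_TFA 3 (orange squares). All black intervals cross 0, and the widest, those of CENPF and MKI67 near the bottom, shrink most without the 2 libraries.

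The other genes of the pathway were read from 6 lists of 127 genes, all tested, and edgeR called 0 of them, with 0 at an unadjusted p under 0.05, and a median log2 fold change of 0.03. Of 20 transcriptional regulators 11 lay below 0 (median -0.04). FOXM1, the activator of G2/M genes, had estimated counts of 2791, 2695 and 4295 with TGF-β and 3602, 3518 and 1542 with TFA, so that TGFb_TFA 3 was again lowest, and a log2 fold change of -0.07 (-0.79 to 0.64). MYBL2, LIN54 and E2F4, parts of the activator and repressor complexes at the homology region, had -0.10, -0.09 and -0.06, and the ends of the list among genes with a mean of at least 1 FPKM were RBL2 (-0.29), a pocket protein of the DREAM complex, and LIN52 (0.25), one of its core subunits. Of 16 genes of G2/M entry control 5 lay below 0, from CDC25B (-0.20), a phosphatase that activates CDK1, to CKS2 (0.36), a small CDK-binding protein. CDKN1A, the inhibitor p21 that p53 raises to stop the cycle, read 7.55 ± 1.27 FPKM against 7.95 ± 0.471 FPKM (SD, n = 3; 0.11).

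The remaining lists differed in how many genes lay below 0, along with how TGFb_TFA 3 lay in them. Of 17 subunits and partners of the anaphase-promoting complex 4 lay below 0, between ANAPC2 (-0.18) and ANAPC10 (0.32), both core subunits. The 19 cohesin and condensin genes encode subunits and partners of the ring complexes that hold or fold chromatids. Of these 19, 16 lay below 0 (median -0.08), from NCAPD2 (-0.19), a condensin subunit, to CDCA5 (0.02), sororin. In 17 of these 19 TGFb_TFA 3 was the lowest of 6 libraries, where it was in 29.8% of all genes, and without it their median was 0.15. They were also the longest list, with a median effective length of 6.51 kb. The kinetochore and checkpoint list that follows had 3.35 kb, and TGFb_TFA 3 was lowest in 5 of its 33 genes. Of 33 other kinetochore and checkpoint genes 5 lay below 0 (median 0.13, or 0.07 without TGFb_TFA 3), with CENPC (-0.24), the link between CENPA chromatin and the kinetochore, and DSN1 (0.33, unadjusted p = 0.081 in edgeR's quasi-likelihood test), a subunit of the MIS12 complex, at the ends. BIRC5, survivin, which sits in the passenger complex with AURKB, INCENP and CDCA8, had 0.10 (-0.24 to 0.45). Of 22 other spindle and cytokinesis genes 14 lay below 0 (median -0.05, or 0.12 without TGFb_TFA 3), between CKAP5 (-0.21), a microtubule polymerase, and KIF14 (0.17), a midzone kinesin. Among the 41 DNA replication and G1/S genes 22 lay below 0 (median -0.00), and edgeR called 0. The ends were CDT1 (-0.26), which licenses replication origins, and RPA3 (0.33), a subunit of the single-strand binding complex RPA. Many list ends rested on TGFb_TFA 3. Without it the low ends read -0.11 (RBL2), 0.01 (CDC25B), -0.14 (ANAPC2), -0.00 (NCAPD2), 0.02 (CENPC), 0.12 (CKAP5) and -0.15 (CDT1). The high ends then read 0.15 (LIN52), -0.06 (CKS2), 0.01 (ANAPC10), -0.01 (CDCA5), 0.25 (DSN1), 0.56 (KIF14) and -0.10 (RPA3).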

How the data were processed

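The deposited table gives, for each of 31016 genes and 6 libraries, an FPKM value and an estimated count, as the authors made them. Per the labels' protocols the libraries held poly(A) RNA, kept strand by dUTP and carried molecular identifiers in their adapters; for removing duplicates, their use is not stated in these sources. Tools listed in the submitters' processing notes are StringTie 1.3.4d, HISAT2 2.0.4 and cutadapt 1.9, on GRCh38, with no role for each. The deposited estimated counts are whole numbers equal to FPKM times a fixed gene length and a library constant, so they may derive from coverage, and totals need not be numbers of fragments.

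Counts of the 18265 genes passing filterByExpr were scaled by TMM and tested 2-sided with glmQLFTest in edgeR 4.0.16 (R 4.3.3), the design holding the group alone. Calls needed a Benjamini-Hochberg p under 0.05 over these genes. Standard errors are the log2 fold change over the square root of F. Log2 CPM used a prior count of 2. Coding lengths are the longest coding sequence among the table's transcripts in GENCODE 29, without the stop codon. The scripts were tested on simulated data. Alternatives were DESeq2 1.42.0, limma 3.58.1 on log2(FPKM + 0.5), other filters and scalings, the replicate number as a block, libraries left out, and offsets removing length trends. All members were named, and from each other list the genes with the highest and lowest fold change among those with a mean of at least 1 FPKM, plus FOXM1, MYBL2, LIN54, E2F4, CDKN1A and BIRC5. The members and lists were chosen with earlier results of these data known.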

Additional observations from a re-analysis of the deposited data

How the results depend on the processing

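No member was called by edgeR, DESeq2 or limma under any alternative run. Over all genes, 2 were called by edgeR, 13 by DESeq2, 1 with the replicate number as a block, and 1 to 3 when each library was left out in turn. Of 683 values of single members under an alternative, 676 moved by less than the spread between replicates and 7 by more, 6 of these without TGFb 1 and TGFb_TFA 3 together. The median of the 18 longer members, -0.10 with all libraries, was 0.19 without TGFb 1 and TGFb_TFA 3. The correlation of the members' log2 fold change with effective length, -0.53 with all libraries, ran from -0.68 to 0.65 when each library was left out, and was 0.65 without TGFb 1 and TGFb_TFA 3. With each library's coding-length trend removed by offsets, chosen after seeing the data, the members' median was -0.08, beside -0.06 for all genes in that fit. Libraries with the same number deviated together with correlations of 0.04, -0.12 and -0.13, while TGFb 2 and TGFb_TFA 3 did so with 0.21. Such deviations carry the length shifts of TGFb 2 and TGFb_TFA 3, so they cannot decide whether the numbers pair the libraries. The members' median was -0.03 in the fit with the block.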
